A study of Mus musculus with 4 samples.

Results

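The Tle3 and Tle4 loci were taken as 2 windows of the mouse genome (mm9 build), chromosome 9 from 61000000 to 61500000 for Tle3 and chromosome 19 from 14400000 to 15100000 for Tle4. All Meis and Prep peaks that lay wholly inside a window were members. They numbered 18 of the 9017 peaks of both lists: 9 Meis peaks and 1 Prep peak in the Tle3 window, and 5 Meis peaks and 3 Prep peaks in the Tle4 window. The windows were chosen by the scores of the Meis peaks, because each holds 1 of the 10 highest Meis peaks of the genome. The height of that peak, the number of Meis peaks around it and every other Meis value given below are therefore descriptions, and no test was made on them. No mm9 gene annotation was used, so the gene names of the windows come from the definition of the windows and no peak was assigned to an exon, intron, promoter or UTR.

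The peaks come from chromatin immunoprecipitation and sequencing (ChIP-seq), which maps where a protein sits on DNA, in dissociated trunk cells of wild-type C57BL/6 embryos at embryonic day 11.5. One library was made with antibodies to Meis1/2 (K830, K844) and one with an antibody to Prep1/2 (N15 Santa Cruz), so neither list tells apart the 2 proteins its antibody is directed against. Each antibody and each of its antibody-free inputs has 1 library, and how far any value would vary between embryos or repeats was not measured. The labels do not say whether embryos were pooled. The Meis list holds 5686 peaks and the Prep list 3331. Each peak carries a score from the authors' caller, whose scale is not stated. Scores were compared within a list. Peaks were numbered down each list from the highest score, and this number is called the place. The trunk holds many cell types, and a peak does not say in which of them the protein was bound.

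Meis and Prep proteins are transcription factors with a TALE-type homeodomain. They bind DNA with Pbx partners, and Meis also works beside Hox proteins in patterning the trunk and limbs. Tle3 and Tle4 belong to the Groucho family (synonyms Grg3a and Grg4 in the RefSeq gene table). Groucho proteins do not bind DNA themselves. They are recruited by DNA-bound factors, among them Hes proteins of the Notch pathway and Tcf/Lef proteins of the Wnt pathway, and bring in histone deacetylases that silence transcription. The RefSeq table, which uses the GRCm38.p6 build, lists 7 genes named Tle1 to Tle7. It places Tle3 on chromosome 9 between the protein-coding genes Uaca and Rplp1, and Tle4 on chromosome 19 between Olfr1505 and Psat1, on the same chromosomes as the windows.

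Peak sequences could not be read without an mm9 genome. The stretches of 250 bases just before the annotated starts of both genes are shown instead, since these are the regulatory sequences that the window names point to. They are from RefSeq on GRCm38.p6, at chr9:61372116-61372365 on the plus strand for Tle3 and at chr19:14598184-14598433 on the minus strand for the first of 2 starts listed for Tle4. These positions belong to another build than the peaks, so no distance from a peak to a start was taken. Both are written 5′ to 3′ along the gene, and the capitals mark the longest run of bases that the stretches share.

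Tle3: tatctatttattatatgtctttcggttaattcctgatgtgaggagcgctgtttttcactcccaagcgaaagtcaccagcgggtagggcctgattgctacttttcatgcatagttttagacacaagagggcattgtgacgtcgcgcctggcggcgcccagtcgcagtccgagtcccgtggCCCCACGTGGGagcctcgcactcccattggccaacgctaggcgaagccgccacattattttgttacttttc

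Tle4: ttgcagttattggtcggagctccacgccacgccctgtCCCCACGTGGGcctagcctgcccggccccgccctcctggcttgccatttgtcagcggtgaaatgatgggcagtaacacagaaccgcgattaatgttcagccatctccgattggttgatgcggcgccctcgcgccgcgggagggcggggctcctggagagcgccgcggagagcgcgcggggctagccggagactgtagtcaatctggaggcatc

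The shared run, CCCCACGTGGG, is 11 bases long and holds the E-box CACGTG. It begins 71 bases before the start of Tle3 and 213 bases before that of Tle4. The same run, on either strand, was found in 14 of 32851 RefSeq start regions of this length (0.0426%), and CACGTG alone in 6.02% of them. It was picked out after the sequences were compared, so its rarity is a description. The Meis and Prep core TGACAG was in none of the 3 start regions of Tle3 and Tle4 on either strand, against 15.9% of all start regions. TGATTGAC, which joins a Pbx half-site to the first bases of that core, and the Pbx-Hox type sequence TGATTGAT were likewise in none of the 3, against 0.691% and 0.67% of all. With only 3 regions and shares this low, finding none does not set these genes apart from other genes. These counts concern the letters of these stretches only.

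In the Tle3 window, 1 very high Meis peak stood among 8 modest ones. The high peak lay at 61218275 to 61218434 on chromosome 9, with a score of 65.8 and place 5 of 5686, and was 160 bp wide. The next in score was the peak at 61283183 to 61283354, with a score of 16.3 at place 791, a score lower by 49.5. The remaining 7 peaks had scores from 8.73 to 11.4. The whole Meis list has a lowest score of 8.51 and a median of 10.7; 5 of these 7 peaks lay below the median, and those at 61017369 and 61105924 lay above it, both with a score of 11.4.

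From left to right, the Meis peaks of the Tle3 window began at 61009478 (score 9.65), 61017369 (11.4), 61105924 (11.4), 61159491 (8.73) and 61173984 (10.1). After the peak of place 5 came those at 61221173 (9.99), 61281979 (9.83) and 61283183 (16.3). Many low peaks share a score, so their places are not exact: the score of the peak at 61009478 is held by 241 Meis peaks, at places 3775 to 4015. The median score over the 9 peaks was 10.1, against 10.7 over the whole list, and 5 of the 9 lay at or below the list's median.

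**Figure D1:**
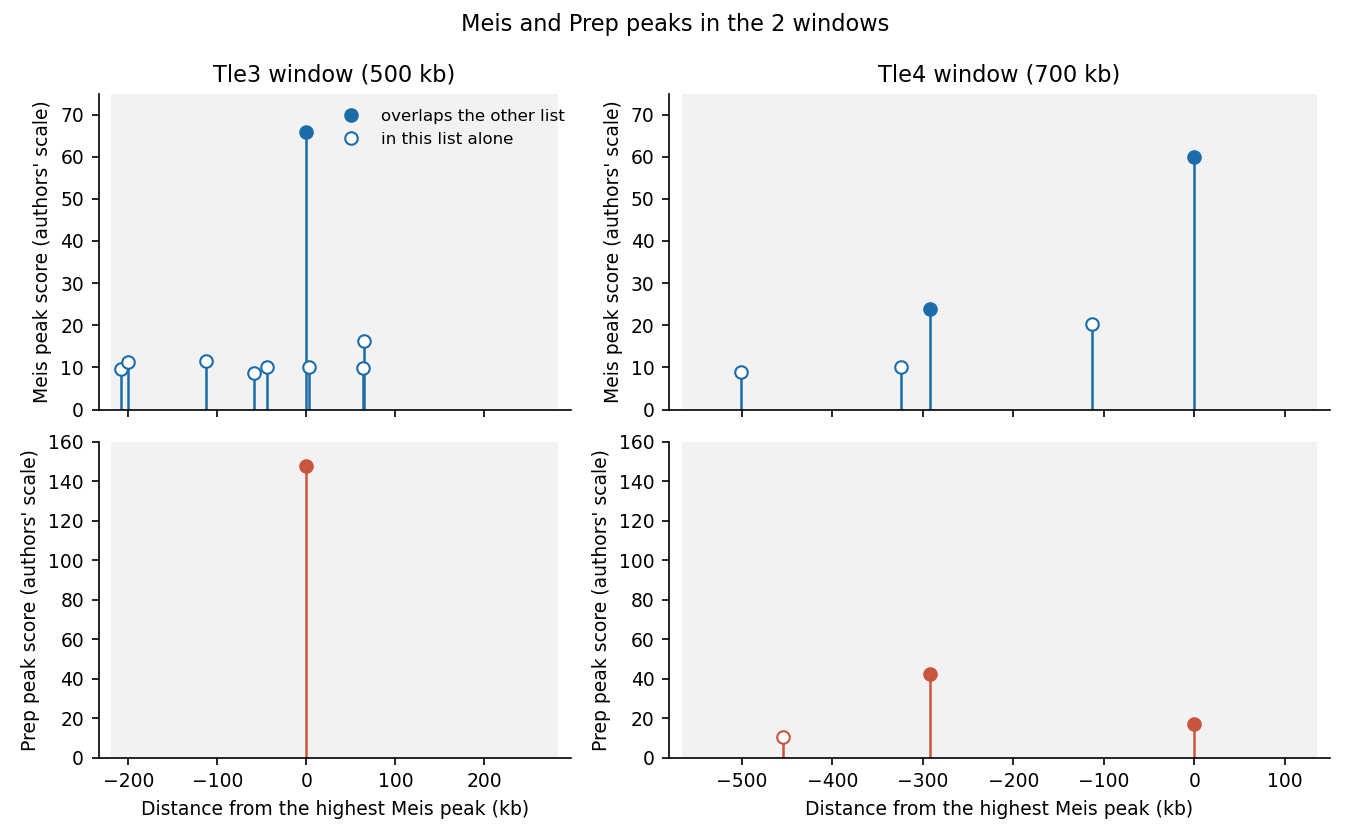
Score of each Meis peak (upper panels, blue) and Prep peak (lower panels, red) on the authors' scale, against the distance of its centre in kb from the highest Meis peak of the Tle3 window (left) and the Tle4 window (right); grey marks the window, filled points overlap a peak of the other list and open points do not. The Tle3 window shows 1 Meis peak at 65.8 above 8 peaks of at most 16.3, with the only Prep peak at the same position, while the Tle4 window shows 3 Meis peaks above 20 and 2 of its 3 Prep peaks under a Meis peak.

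The Tle4 window held fewer Meis peaks, and 3 of its 5 were in the highest-scoring 10% of the list, counting the peak by which the window was chosen. Its highest Meis peak lay at 14965216 to 14965401 on chromosome 19, with a score of 59.95, place 7 and a width of 186 bp. The peak at 14672873 to 14673061 had a score of 23.8 at place 219, and the peak at 14851865 to 14852086 a score of 20.3 at place 378. The 2 weak peaks lay at 14464791 to 14465013 (score 8.96, place 4812) and at 14641211 to 14641518 (score 10.02, place 3391). The median score was 20.3, 10.2 above that of the Tle3 window. Both medians include the highest peak, by which each window was chosen.

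The 2 loci thus differed in how the Meis scores were spread. In the Tle4 window 3 of 5 Meis peaks belonged to the highest-scoring 10% of the list (60%; 95% Wilson interval 23.1 to 88.2%), and in the Tle3 window 1 of 9 did (11.1%; 1.99 to 43.5%), where the list as a whole has 10%. The intervals cover the number of peaks only, they overlap, and peaks of 1 window are not replicates. In both windows the highest peak entered by the choice of the window itself. Without it, 2 of 4 Meis peaks of the Tle4 window and 0 of 8 of the Tle3 window were in the highest 10%.

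**Figure D2:**
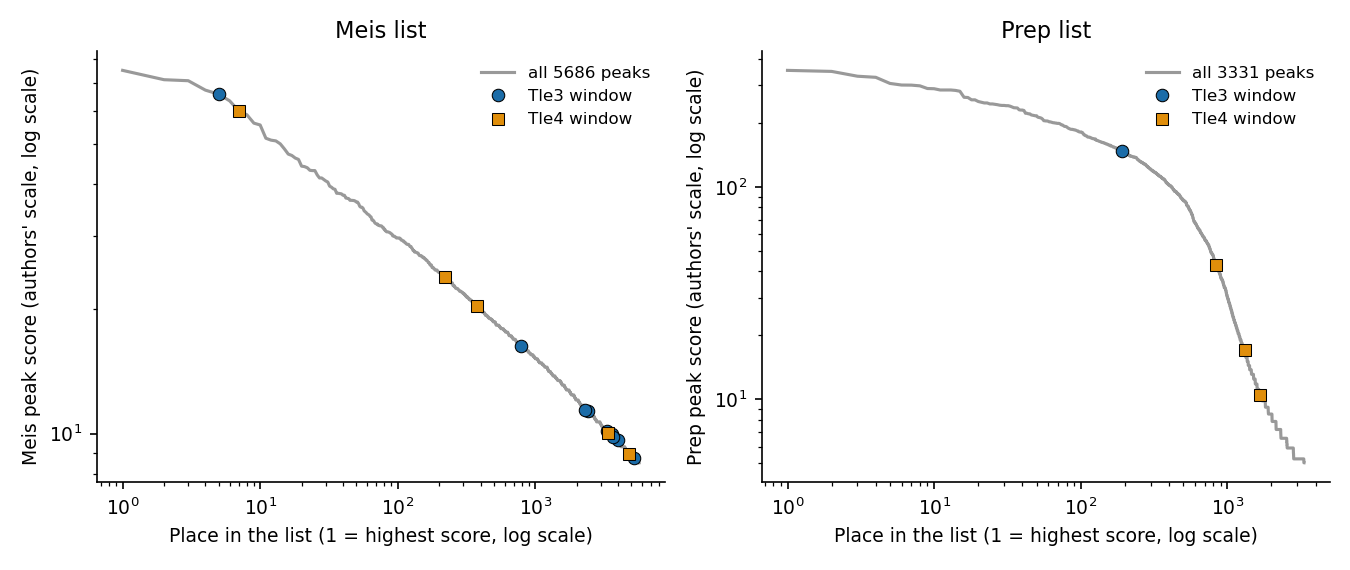
Score on the authors' scale against place in the list, both on log scales, for all 5686 Meis peaks (left) and all 3331 Prep peaks (right) as a grey line, with the peaks of the Tle3 window as blue circles and of the Tle4 window as orange squares. The highest Meis peaks of the windows stand at places 5 and 7, the next 2 of the Tle4 window at places 219 and 378, and the Prep peak of the Tle3 window at place 190 stands far to the left of the 3 Prep peaks of the Tle4 window.

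Over the full list, Meis peaks were packed more closely in the Tle3 window than in the Tle4 window. Between the centres of neighbouring Meis peaks the median distance was 29.4 kb in the Tle3 window (8 distances, 1.21 to 88.6 kb) and 145 kb in the Tle4 window (4 distances, 31.6 to 179 kb), against 177 kb over the whole list. Distances inside a window cannot exceed its length and leave out the stretches at its edges. Those of the whole list reach 22131 kb, so the windows look denser than the list partly by construction. Among Meis peaks of the highest-scoring 50%, the Tle3 window kept 4 peaks with a median distance of 88.6 kb, and the Tle4 window 3 peaks with 146 kb. The lower-scoring 50% held 5 of the 9 Meis peaks of the Tle3 window and 2 of the 5 of the Tle4 window. Leaving out peaks lengthens distances in any region, and no whole-list distance was taken for the highest-scoring 50%. Of the 8 distances in the Tle3 window 3 were at most 10 kb, and in the Tle4 window 0 of 4 were. Over all Meis peaks, 439 of 5666 distances (7.75%) were that short.

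The 3 close pairs of the Tle3 window were of different kinds. The peak of place 5 had a weak neighbour 2.92 kb to its right, at 61221173 to 61221384 with a score of 9.99. The peaks at 61281979 to 61282148 and 61283183 to 61283354 were 1.21 kb apart, with scores of 9.83 and 16.3, and lay 63.7 and 64.9 kb to the right of the high peak. The peaks at 61009478 and 61017369 were 7.9 kb apart, with scores of 9.65 and 11.4, and lay 209 and 201 kb to its left. In the Tle4 window the peak of place 7 had its nearest Meis neighbour 113 kb to the left. Of all Meis peaks, 2324 (40.9%) had their nearest Meis neighbour as far away or farther, and the median was 78.1 kb. The closest Meis peaks of the Tle4 window were the weak one at 14641211 and the high one at 14672873, which were 31.6 kb apart.

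All 9 Meis peaks of the Tle3 window lay within 274 kb, which is 18 peaks per Mb of window, against 2.38 per Mb over chromosome 9. The 5 of the Tle4 window spread over 501 kb, which is 7.14 per Mb, against 2.61 over chromosome 19. When the genome was laid out in tiles of 500 kb, 28 of 5276 tiles (0.531%) held 9 Meis peaks or more. In tiles of 700 kb, 272 of 3773 (7.21%) held 5 or more. Tiles with as many Meis peaks of the highest 10% showed the reverse order, with 8.85% of the 500-kb tiles holding 1 or more and 0.504% of the 700-kb tiles (19) holding 3 or more. The windows were laid around a high peak and the tiles were not, so these shares place the windows on a scale and test nothing.

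The edges of the windows did not cut through a group of peaks on the right. In the Tle3 window the last Meis peak, at 61283183 with a score of 16.3, was followed by 335 kb without a Meis peak, up to one at 61618059 to 61618229 (score 14.6, place 1149). On the left the first Meis peak lay 9.48 kb inside the edge, and the next one outside, at 60959507 to 60959706 with a score of 11.2, lay 40.3 kb beyond it. The left edge of the Tle3 window thus fell inside a stretch that carried Meis peaks on both sides. In the Tle4 window the peak of place 7 was the last one inside. It was followed by 450 kb without a Meis peak, up to another high peak at 15415229 to 15415412 with a score of 27 and place 143. To the left of the Tle4 window the next Meis peak lay at 14310937 to 14311099, with a score of 11.4, 88.9 kb beyond the edge.

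Of the 4 Prep peaks of the windows, 3 lay on Meis peaks, among them the highest Meis peak of each window, by which it was chosen. This count depends on that choice. Over the whole list 12.2% of Prep peaks overlapped a Meis peak. The Tle3 window held 1 Prep peak, at 61218292 to 61218452, with a score of 148, place 190 of 3331 and a width of 161 bp. The Tle4 window held 3 Prep peaks. They lay at 14672873 to 14673070 (score 42.7, place 842, 198 bp), at 14965169 to 14965405 (score 17.1, place 1313, 237 bp) and at 14511147 to 14511386 (score 10.5, place 1682, 240 bp). Over the whole list the median Prep score was 10.5 and the median width 244 bp, so the weakest of the 3 had the median score of the list. Prep peaks numbered 2 per Mb in the Tle3 window and 4.29 per Mb in the Tle4 window, against 1.31 over chromosome 9 and 1.6 over chromosome 19. At least 1 Prep peak was found in 32.7% of the 500-kb tiles and at least 3 in 11.3% of the 700-kb tiles.

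The Prep peak of the Tle3 window was isolated within its own list. The nearest other Prep peak lay 713 kb away, to the right at 61930880, and to the left 1714 kb were free of Prep peaks. Of all Prep peaks, 361 (10.8%) had their nearest Prep neighbour as far away or farther. The median distance to the nearest Prep peak was 85.9 kb over the list. The Prep peaks of the Tle4 window had neighbours at 162, 162 and 292 kb, also above that median. Of all Prep peaks, 36.7% had a nearest neighbour at least 162 kb away and 24.4% at least 292 kb away. To the left of these 3 peaks 1640 kb were free of Prep peaks, and to the right 2373 kb. How often the list has stretches this long was not counted.

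Overlap with the other list was 1 of 9 Meis peaks in the Tle3 window (11.1%; 95% Wilson interval 1.99 to 43.5%) and 2 of 5 in the Tle4 window (40%; 11.8 to 76.9%), where 7.16% of all Meis peaks overlapped a Prep peak by at least 1 bp. The highest Meis peak, by which each window was chosen, is among these overlaps. Without it, 0 of 8 Meis peaks of the Tle3 window and 1 of 4 of the Tle4 window overlapped a Prep peak. Of the Prep peaks, 1 of 1 and 2 of 3 overlapped a Meis peak, where 12.2% of the whole list did. The 1 in the Tle3 window and 1 of the 2 in the Tle4 window lay on the Meis peak by which the window was chosen. These Prep counts therefore depend on that choice and cannot be set against the whole list as a result. Together, 3 of the 4 Prep peaks of the windows lay on a Meis peak, including the highest Meis peak of each window. Of the 10 highest Meis peaks 8 overlapped a Prep peak, and these 2 are among them.

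The overlapping pairs were close to concentric. In the Tle3 window the Meis peak of place 5 and its Prep partner shared 143 bp, which is 89.4% of the Meis peak and 88.8% of the Prep peak. Their centres were 17.5 bp apart and their widths differed by 1 bp. In the Tle4 window the Meis peak of place 7 lay wholly within its Prep partner, which was 51 bp wider, and the centres were 21.5 bp apart. The Meis peak of place 219 also lay wholly within its partner, with the same first base, 14672873, and a centre 4.5 bp away. Over all 409 pairs the median distance between centres was 28.5 bp (quartiles 13 and 53 bp), so the centres of each of these 3 pairs were closer than in the median pair. The median overlap over all pairs was 100% of the Meis peak, above that of the Tle3 pair. The Prep peak was the wider one in 351 of the 409.

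**Figure D3:**
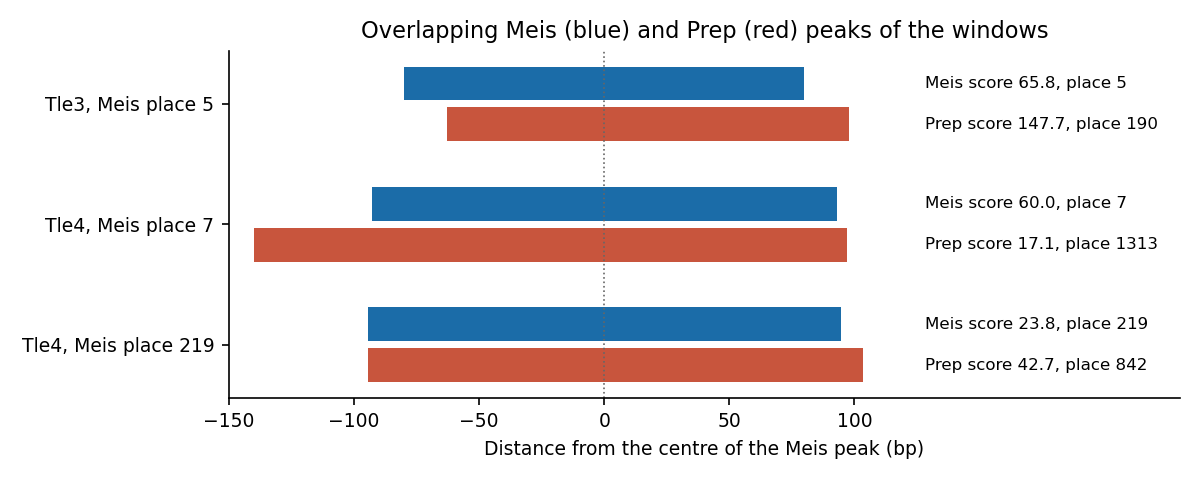
The 3 overlapping pairs of the windows drawn to scale, with Meis peaks in blue and Prep peaks in red, against the distance in bp from the centre of the Meis peak; the text at the right gives score and place of each peak in its own list. The Prep peak nearly matches the Meis peak in width in the first and last pair and extends 47 bp beyond its left end in the middle pair.

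The order of the pairs differed between the lists. By Meis score, the pair of the Tle3 window came first of the 3, the pair at place 7 of the Tle4 window next and the pair at place 219 last. By Prep score, the Tle3 pair was again first, with 148, but the Tle4 pair with the weaker Meis peak came next, with 42.7, ahead of 17.1 at the highest Meis peak of that window. In the Tle4 window the higher Meis peak thus carried the lower Prep peak. All 3 Prep partners scored above the upper quartile of the Prep peaks in pairs, which was 13.1 (median 7.88). The whole Prep list had a higher upper quartile, 43.3 (median 10.5), and only the partner in the Tle3 window scored above that. Among the 409 pairs they ranked 8th, 52nd and 89th by Prep place.

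The Meis and Prep peaks that did not overlap lay between 2.91 and 209 kb from the nearest peak of the other list. In the Tle3 window the Meis peak nearest to the Prep peak without touching it was the weak one at 61221173, 2.91 kb away, and the other 7 lay 44.3 to 209 kb from it. In the Tle4 window the closest such peaks were the weak Meis peak at 14641211 and the Prep peak at 14672873, which were 31.6 kb apart. The Prep peak at 14511147 had its nearest Meis peak at 14464791, 46.4 kb away, with a score of 8.96. The high Meis peak at 14851865 (place 378) had no Prep peak within 113 kb. Signal below the lowest listed scores, 8.51 for Meis and 5.03 for Prep, is not in the lists, and weaker binding of the second protein at such sites would go unseen.

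Widths of the paired peaks varied. The highest Meis peaks were 160 and 186 bp wide, below the lower quartile of the Meis list (187 bp), and the Meis peak of place 219 was 189 bp wide. All 10 highest Meis peaks of the list were narrower than 187 bp, at 157 to 186 bp, so this width was not particular to the 2 windows. The Prep peak of the Tle3 window, at 161 bp, was below the lower quartile of the Prep list (189 bp), and the Prep peaks of the Tle4 pairs, at 198 and 237 bp, were between that quartile and the median of 244 bp. The other Meis peaks of the windows were between 170 and 308 bp wide, the widest being the weak one at 14641211. Summed over peaks, 1803 bp were covered by Meis peaks in the Tle3 window and 1128 bp in the Tle4 window.

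Set among the 10 highest Meis peaks of the genome, the windows differed in their Meis neighbours and in the place of the Prep partner. The Meis peak of the Tle3 window had 8 other Meis peaks within 250 kb, which is the median of the 10, and the peak of the Tle4 window had 1. The range over the 10 was 0 to 23, and over all 5686 Meis peaks the median was 2 (quartiles 1 and 3). The Prep partner of the Tle3 peak, at place 190, was the highest of the 8 partners, with the next at place 703. The partner of the Tle4 peak, at place 1313, was the 4th of the 8, and the lowest was at place 3097. The tallest other Meis peak within 250 kb had a score of 16.3 at Tle3 and 20.3 at Tle4, and among the 9 high peaks with such a neighbour it ranged from 10.96 to 46.8.

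**Figure D4:**
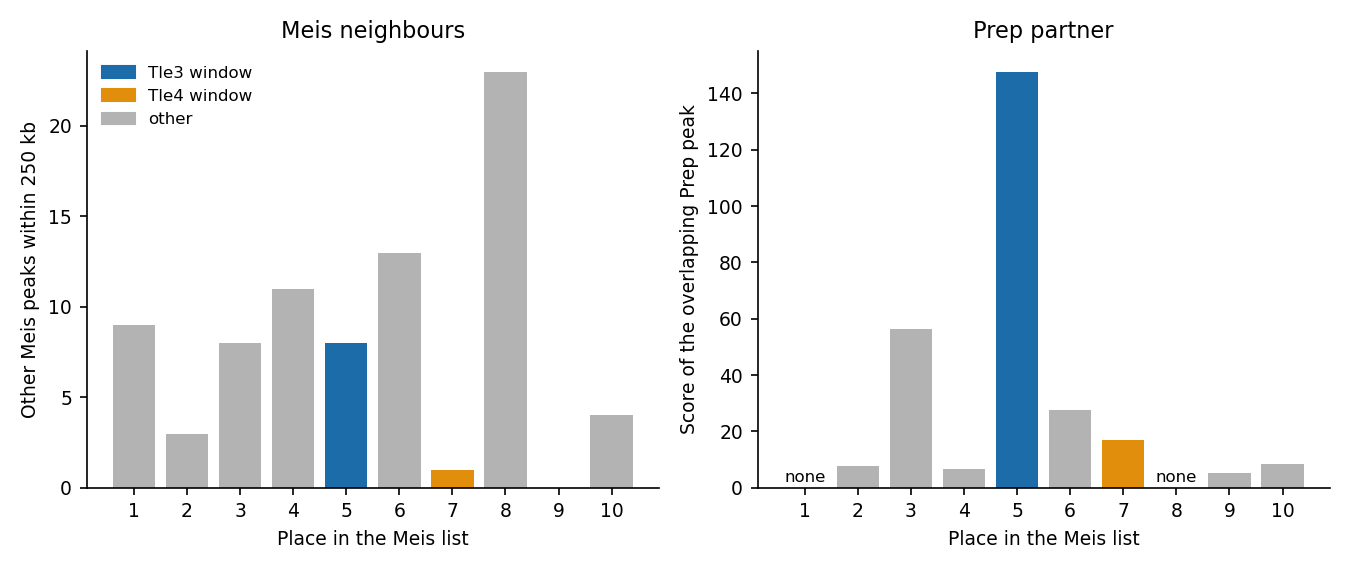
The 10 highest Meis peaks in order of place, with the number of other Meis peaks within 250 kb (left) and the score of the overlapping Prep peak on the authors' scale (right; "none" where no Prep peak overlaps); blue is the peak of the Tle3 window, orange that of the Tle4 window and grey the other 8. The Tle3 peak has 8 Meis neighbours and the highest Prep partner, at 148, while the Tle4 peak has 1 neighbour and a partner at 17.1.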

How the data were processed

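Peaks were taken from the 2 deposited lists, 1 per antibody library; the inputs were not analysed here. The submitters' processing notes name BWA and mm9. Per the file headers, each peak has a position, a name containing "pics" and a score. The deposited value is a score of the authors' caller. Its scale, the caller's settings and how the input was used are not stated in the labels or headers, and depth is unknown.

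Peak starts were raised by 1, assuming BED positions. Peaks wholly inside a window were kept, overlap meant at least 1 bp, and ties in score took the order of the peak names. Distances run between centres, and free stretches between peak ends. Tiles ran from position 1 to the last peak of each chromosome. Wilson intervals (95%) cover counting error only. No test was made. The windows and comparisons were chosen with earlier results of these data known. Named in full were the highest and the overlapping peaks, those in the highest 10% of a list, the closest peaks that do not overlap and those at window edges. The tile counts for Prep peaks and for the highest 10%, the counts around the 10 highest Meis peaks and the sequence run were added after the data were examined. Overlap counting was tested on simulated lists. For tiles the test checked only that the counts added up to the number of peaks, not which tile a peak fell in. Python 3.11.15, numpy 2.4.6, pandas 2.3.3, scipy 1.17.1 and matplotlib 3.10.9 were used. The alternatives were other window lengths, the highest-scoring 50% of the lists, other overlap rules, a fixed width of 200 bp and other tiles. Further ones were peaks counted by their centre or by touching the window, and ties given their lowest place.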

Additional observations from a re-analysis of the deposited data

How the results depend on the processing

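Of 58 values under alternative settings for 16 results, 49 stayed within 1.5 times the value given (for shares of tiles, within its 95% Wilson interval) and 9 moved beyond. Some of the 49 could not have moved, so this count overstates how stable the results are. No peak lay across a window edge, so counting peaks by centre or by touch gave the same members. The highest Meis peak of each window shared its score with no other peak, so the rule for ties could not change its place. All 20 counts of overlapping peaks were the same under the stricter overlap, centres within 1 kb, 200-bp peaks, the highest-scoring 50% and doubled windows. With the highest-scoring 50% of the lists, 4 Meis peaks were left in the Tle3 window and 3 in the Tle4 window. Windows of 0.5 times the length about the same centre left 3 Meis peaks and 1 Prep peak at Tle4. This window leaves out the Meis peaks at 14464791 and 14965216 (place 7) and the Prep peaks at 14511147 and 14965169. The median Meis distance at Tle3 was 14.5 kb in the halved window, 47.1 kb in the doubled one and 88.6 kb in the highest-scoring 50%. At Tle4 it ran from 105 to 165 kb, above each of those values. Counting only tiles with a peak of either list, the shares were 0.871% for Tle3 and 10.5% for Tle4. Both lists are cut at a lowest score, and depth is unknown, so weaker peaks cannot be counted. No paired analysis was possible because each antibody has 1 library.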

Other observations

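The Meis peak of place 219 and its Prep partner in the Tle4 window begin at the same base. This is uncommon among overlapping peaks: 3 of the 409 pairs (0.733%) have the same first base and 5 the same last base. It was picked out after its values were seen, and no test was made.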
